A study of Homo sapiens with 12 samples.

Results

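The genes examined were 10 upstream components of the Hippo pathway: STK3, STK4, SAV1, MOB1A, MOB1B, LATS1, LATS2, NF2, WWC1 and AMOTL1. They were chosen by name, with earlier results of these data known. They are 10 of the 26258 genes in the deposited table and of the 13515 genes tested, and all 10 passed the filter on low values. Their mRNA levels were measured by poly(A) RNA sequencing in HLE cells, an established human hepatocellular carcinoma line that carried no engineered change here. The cells received a control siRNA (siCtrl), siRNA against YAP and TAZ together (siY/T; the genes are YAP1 and WWTR1) or siRNA against ATF4 (siATF4), and each transfection was treated with the vehicle DMSO or with 5 µM Sorafenib, a multikinase inhibitor used against liver cancer. This gave 6 groups of 2 libraries, 12 libraries in all. Knockdown by siRNA is transient and partial, all 6 groups went through transfection, and no untransfected cells were analysed here. The labels do not say whether the libraries of a group came from separate cultures, so P values measure only the spread between these samples.

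The Hippo pathway is a kinase cascade that restrains the transcriptional coactivators YAP and TAZ. The MST kinases, encoded by STK4 (MST1) and STK3 (MST2), act with the scaffold SAV1 and phosphorylate the LATS kinases (LATS1, LATS2) and their MOB1 coactivators (MOB1A, MOB1B), and LATS phosphorylates YAP and TAZ so that they are held in the cytoplasm or degraded. NF2 (Merlin) and WWC1 (KIBRA) sit upstream at the cell cortex and promote LATS activation, and AMOTL1, an angiomotin family protein, binds YAP and TAZ at junctions. LATS2 and NF2 are known as transcriptional targets of YAP/TAZ-TEAD in a negative feedback loop, and loss of NF2, of SAV1 or of both MST kinases enlarges the liver and leads to liver tumors in mice. Most regulation of the cascade is by phosphorylation, which mRNA levels do not show.

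Values are CPM, reads on a gene per 1000000 reads on all genes, as deposited. The 12 libraries held 41408348 to 53619732 reads on genes, so that 1 read was worth 0.0186 to 0.0241 CPM, and the lowest count behind any value of the 10 genes was 220 reads, for SAV1. CPM values add up to the same total in every library, so each is a share of the reads on genes, and fewer cells of a type and less RNA per cell cannot be told apart. The 2 siY/T libraries in DMSO differed from each other the most, with a chi-square of 20.7 per gene as compared to 2.98 to 8.30 in the other 5 groups. The targeted genes were lower in every library that received their siRNA. YAP1 was at 46.6 and 57.7 CPM upon siY/T in DMSO against 277 and 279.9 CPM in siCtrl, and WWTR1 was at 53.3 and 68.6 CPM against 169.8 and 173 CPM. ATF4 was at 96.2 and 101 CPM upon siATF4 in DMSO against 248 and 249 CPM in siCtrl, and at 84.5 and 90.6 CPM against 484 and 492 CPM in Sorafenib. The knockdowns were not independent of each other: siATF4 in DMSO also lowered WWTR1, from 171 to 106 CPM (log2 fold change −0.70), and siY/T lowered ATF4 by 0.30 on the log2 scale in DMSO and by 0.63 in Sorafenib. HLE cells expressed KRT8 (655 to 2558 CPM), KRT18 (312 to 1089 CPM) and VIM (1952 to 2916 CPM). Of the other liver epithelial and carcinoma markers, CDH1 was at 0.0396 to 7.93 CPM, EPCAM at 0.150 to 0.701 CPM and AFP at 0.0390 CPM or less. Of the other mesenchymal markers, FN1 was at 18.8 to 79.6 CPM and CDH2 at 3.77 to 6.92 CPM. Of 8 hepatocyte markers, 6 (ALB, TTR, APOA1, APOB, TF and HNF4A) were at or near 0 and did not reach the test. SERPINA1 reached 2.32 CPM at most, and FGB was at 64.4 to 431 CPM. The means of FGB were 399 CPM in siCtrl, 239 CPM in siY/T and 70.4 CPM in siATF4 in DMSO. In Sorafenib they were 175, 249 and 64.9 CPM, so that FGB was lower in siY/T than in siCtrl in DMSO only. Of the leukocyte markers, PTPRC, CD3E and LYZ were at or near 0, whereas CD68, a lysosomal protein that is not restricted to leukocytes, was at 20.4 CPM in siCtrl and 73.5 CPM in siATF4 in DMSO and at 23.0 and 61.7 CPM in Sorafenib. The endothelial markers PECAM1, VWF and CDH5 were at 0.202 CPM or less. The means of KRT8 were 2245 CPM in siCtrl, 669 CPM in siY/T and 1172 CPM in siATF4 in DMSO. In Sorafenib they were 2508, 990 and 1639 CPM in the same order. The means of KRT18 in that order were 1032, 330 and 1026 CPM in DMSO and 721, 322 and 1052 CPM in Sorafenib. KRT8, KRT18, FGB and CD68 thus differed between the siRNA groups, and their part in the results was not tested.

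The 3 members with the strongest decrease upon YAP/TAZ depletion in DMSO were LATS2, NF2 and WWC1, and their promoters are shown for that reason. The windows are from RefSeq on GRCh38.p14, written 5′ to 3′ on the strand of the gene from 250 bases before to 50 bases after the annotated start. Capitals mark GGAATG, the core letters of the motif bound by TEAD, the DNA-binding partner of YAP and TAZ. The LATS2 window is chr13:21061537-21061836 on the minus strand, the NF2 window shown is chr22:29603383-29603682 on the plus strand and the WWC1 window is chr5:168291395-168291694 on the plus strand. NF2 also had an overlapping window at chr22:29603306-29603605, which is not printed.
LATS2: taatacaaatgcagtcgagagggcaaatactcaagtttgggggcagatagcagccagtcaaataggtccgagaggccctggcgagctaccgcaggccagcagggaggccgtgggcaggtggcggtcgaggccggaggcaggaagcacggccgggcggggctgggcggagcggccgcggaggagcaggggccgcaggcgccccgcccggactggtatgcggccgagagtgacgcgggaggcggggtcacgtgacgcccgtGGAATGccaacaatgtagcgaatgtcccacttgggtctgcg
NF2: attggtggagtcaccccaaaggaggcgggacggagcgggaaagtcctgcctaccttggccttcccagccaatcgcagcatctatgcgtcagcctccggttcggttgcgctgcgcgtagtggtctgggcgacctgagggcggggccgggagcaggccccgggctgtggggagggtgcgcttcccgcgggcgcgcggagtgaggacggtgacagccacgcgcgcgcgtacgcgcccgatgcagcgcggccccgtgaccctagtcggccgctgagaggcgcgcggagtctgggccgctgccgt
WWC1: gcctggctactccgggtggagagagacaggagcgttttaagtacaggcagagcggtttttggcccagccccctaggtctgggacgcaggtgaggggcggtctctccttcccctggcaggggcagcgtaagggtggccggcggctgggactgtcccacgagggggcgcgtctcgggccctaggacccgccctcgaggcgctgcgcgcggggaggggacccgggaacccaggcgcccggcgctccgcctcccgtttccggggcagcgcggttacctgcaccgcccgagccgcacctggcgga
LATS2 held GGAATG once, on its own strand, with the first base 10 bases after the start. On either strand, GGAATG was in 14.0% of all 35116 promoter windows, and among the 12 windows of the 9 members that had an entry it was in LATS2 only. TGANTCA, the AP-1 motif, was in the windows of MOB1B and LATS1 and in 7.71% of all windows. TGATGNAA, the core of the element bound by ATF4 with its partners, was in a LATS1 window and in 3.62% of all windows. The motifs did not overlap in these windows, and each match is a description of letters and not of binding. The windows were rich in GC, at 67.7% for LATS2, 72.0% for the printed NF2 window and 72.7% for WWC1 against a median of 58.7% over all windows. The NF2 window not printed was at 65.0%.

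The 10 protein-coding genes lie on 10 different chromosomes, and the values cover their exons. On GRCh37, the build used for the alignment, the genes on the plus strand are STK4 at chr20:43595135-43708662, MOB1B at chr4:71768043-71888166, NF2 at chr22:29999545-30094587, WWC1 at chr5:167718650-167899308 and AMOTL1 at chr11:94439597-94609913. Those on the minus strand are STK3 at chr8:99383456-99955055, SAV1 at chr14:51098776-51135024, MOB1A at chr2:74379655-74406025, LATS1 at chr6:149979289-150039241 and LATS2 at chr13:21547175-21635725.

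The members differed widely in level. Per kilobase of the representative (MANE) transcript, in siCtrl cells in DMSO, the cortical regulator NF2 was highest at 39.9 ± 0.750 CPM per kb (SD, n = 2), followed by WWC1 at 32.6 ± 0.343 and STK4 at 27.1 ± 0.380. STK3 (14.0), MOB1A (11.3) and LATS2 (10.4 CPM per kb) were intermediate. AMOTL1 was at 4.40 ± 0.0576 and LATS1 at 4.30 ± 0.0329 CPM per kb, the closest neighbors in the order, and no test was made of it. MOB1B (2.70) and SAV1 (2.07 CPM per kb) were lowest. With the length of all annotated exons in place of the MANE transcript, the ranks 1, 2, 3, 5, 9 and 10 were unchanged and STK3 moved from rank 4 to rank 8. Across the 12 libraries the highest CPM was 1.37 times the lowest for STK4 and 2.72 times the lowest for WWC1, the extremes among the 10 genes.

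**Figure D1:**
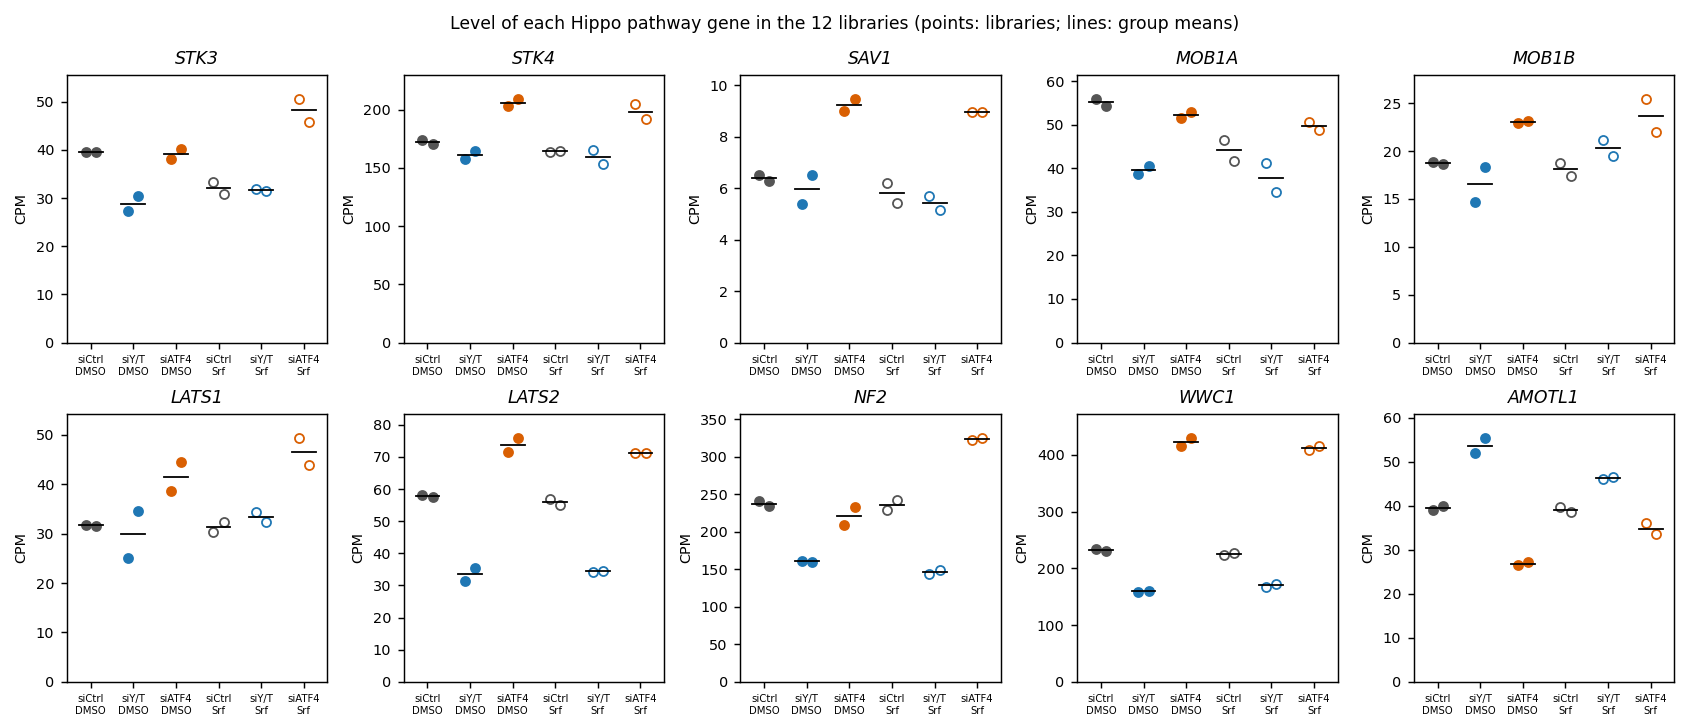
CPM (y axis, from 0) of each of the 10 genes in the 6 groups (x axis); each point is a library, filled for DMSO and open for Sorafenib (Srf), and each line is the mean of 2 libraries. LATS2, NF2 and WWC1 are lowest in the siY/T groups, WWC1 is highest in the siATF4 groups, and NF2 reaches 323 and 325 CPM only in siATF4 with Sorafenib.

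To assess which components respond to loss of YAP and TAZ, siY/T was compared with siCtrl in DMSO. A gene was counted as changed at an adjusted P under 0.05 (limma, Benjamini-Hochberg over all 13515 genes). Of the 10 members, 5 fell (LATS2, NF2, WWC1, MOB1A and STK3), AMOTL1 rose and 4 did not pass. By this rule 60.1% of all genes tested changed, 37.3% rose and 22.8% fell, so that changing at all was common. The median log2 fold change of the members was −0.32 and that of all genes was 0.07. Among all calls 62.1% were higher in siY/T with the deposited scaling, 52.4% with TMM scaling, 48.0% with quantile normalization and 49.6% with DESeq2 on recovered reads, and the 6 calls of members kept their direction under each of these.

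LATS2, the effector kinase, was at 58.2 and 57.7 CPM in the siCtrl libraries and at 31.5 and 35.5 CPM in the siY/T libraries. Both siY/T libraries were below both siCtrl libraries. That held for 7 of the 10 members, STK4 and MOB1B among them although neither passed, and for 25 of 62 other pathway genes tested. The share of all genes is not given here for this comparison. LATS2 fell by 42.1% in mean CPM, with a log2 fold change of −0.78 ± 0.057 (SE, n = 2 per group; adjusted P = 1.5e-07). Only 1.61% of all genes tested had a lower log2 fold change. LATS2 was also the single member to pass the thresholds of the study in this comparison (unadjusted P under 0.05 with a log2 change of 0.58 or more either way), which 14.6% of all genes passed. Its paralog LATS1 was at 31.9 and 31.5 CPM in siCtrl and at 25.1 and 34.6 CPM in siY/T, so that the siCtrl libraries lay between the siY/T libraries and no change was detectable (log2 fold change −0.10, 95% interval −0.35 to 0.15, adjusted P = 0.468).

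The cortical regulators fell with LATS2. NF2 went from 240.4 and 234 CPM in siCtrl to 161 and 160.3 CPM in siY/T, a log2 fold change of −0.56 ± 0.051 (adjusted P = 9.61e-07). WWC1 went from 234 and 231 CPM to 158 and 161 CPM, a log2 fold change of −0.54 ± 0.037 (adjusted P = 9.05e-08). In both genes the groups were apart by many times the distance between replicates, and mean CPM fell by 32.2% for NF2 and fell by 31.5% for WWC1. AMOTL1 moved the other way, from 39.1 and 39.9 CPM to 51.9 and 55.4 CPM (log2 fold change 0.44 ± 0.054, adjusted P = 1.47e-05).

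Of the core cassette, the paralogs again differed in what was detected. STK3 fell from 39.5 CPM in both siCtrl libraries to 27.2 and 30.5 CPM (log2 fold change −0.45 ± 0.068, adjusted P = 8.32e-05), while STK4 was at 174 and 171 CPM against 158 and 164 CPM (−0.10, adjusted P = 0.0940). MOB1A fell from 55.9 and 54.3 CPM to 38.6 and 40.5 CPM (−0.47 ± 0.075, adjusted P = 1.3e-04), while MOB1B was at 18.9 and 18.6 CPM against 14.7 and 18.4 CPM (−0.18, adjusted P = 0.116). The scaffold SAV1 was at 6.53 and 6.26 CPM against 5.38 and 6.52 CPM and overlapped between the groups. Whether paralogs responded differently was not tested. STK4 and MOB1B passed the threshold with TMM scaling, edgeR or DESeq2, and MOB1B and SAV1 (−0.309) passed with quantile normalization, with the same sign. STK4, LATS1 and MOB1B passed without the second siY/T library in DMSO, and LATS1 and SAV1 turned positive (0.13 and 0.03) without the other.

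In the presence of Sorafenib, siY/T was again compared with siCtrl. Of the 10 members 4 fell (LATS2, NF2, WWC1 and MOB1A), AMOTL1 rose and 5 did not pass, against 48.9% of all genes that changed, 30.2% that rose and 18.8% that fell. The members' median was −0.07 and that of all genes was 0.05. Among all calls 61.7% were higher in siY/T with the deposited scaling and 49.4% with TMM, 48.7% with quantile normalization and 49.8% with edgeR or DESeq2. LATS2 and NF2 passed the thresholds of the study, as did 9.95% of all genes.

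LATS2 was at 56.8 and 55.2 CPM in siCtrl with Sorafenib and at 34.2 and 34.6 CPM in siY/T with Sorafenib (log2 fold change −0.70 ± 0.057, adjusted P = 6.48e-07). NF2 was at 229 and 242 CPM against 144 and 149 CPM (−0.68 ± 0.051, adjusted P = 2.76e-07). WWC1 was at 224 and 227 CPM against 168 and 172 CPM (−0.41 ± 0.037, adjusted P = 1.78e-06). These 3 genes were lower in both siY/T libraries than in either control library, as were 30.1% of all genes. AMOTL1 rose from 39.7 and 38.6 CPM to 46.1 and 46.5 CPM (0.24 ± 0.054, adjusted P = 0.00233). MOB1A was at 46.4 and 41.8 CPM against 41.2 and 34.5 CPM (−0.22 ± 0.075, adjusted P = 0.0269), and its call was lost without the first siCtrl library or the second siY/T library in Sorafenib, or with no filter on low values. STK3 was at 33.4 and 30.9 CPM in siCtrl and at 31.8 and 31.4 CPM in siY/T, so that no difference was seen (−0.02, 95% interval −0.17 to 0.13).

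**Figure D2:**
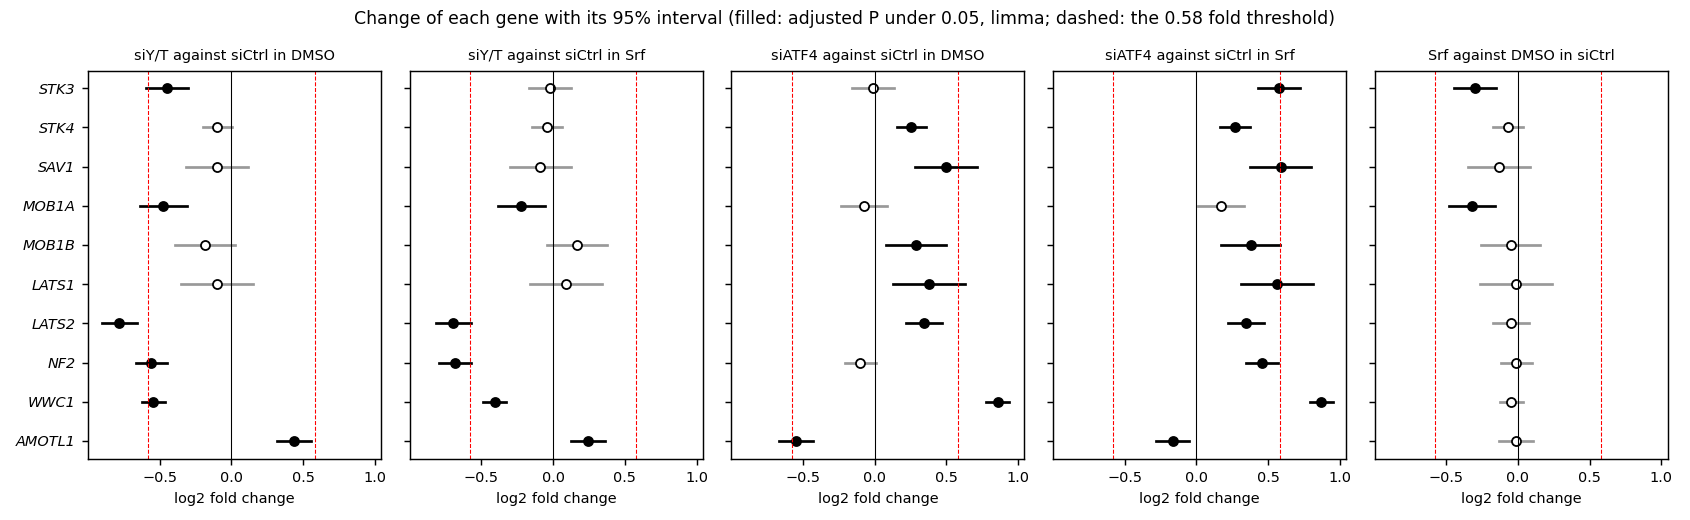
Log2 fold change (x axis, on log2 of CPM plus 0.5) of each gene (y axis) in 5 comparisons, with its 95% interval from limma; filled points have an adjusted P under 0.05 and dashed lines mark 0.58. LATS2, NF2 and WWC1 lie left of 0 in both siY/T panels, most genes lie right of 0 in the siATF4 panels, and only STK3 and MOB1A are filled in the Sorafenib panel.

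ATF4, a transcription factor of the integrated stress response, was depleted in the same design to ask which genes it controls under Sorafenib. In DMSO, siATF4 as compared to siCtrl raised 6 members (WWC1, SAV1, LATS1, LATS2, MOB1B and STK4) and lowered AMOTL1, and 3 did not pass (STK3, MOB1A and NF2), where 67.9% of all genes changed, 33.4% rose and 34.4% fell. The members' median was 0.27 and that of all genes was −0.0013. WWC1 alone passed the thresholds of the study, which 22.7% of all genes passed. The siCtrl libraries are shared with the siY/T comparisons, so the 2 sets of values are not independent. In siATF4 in DMSO the mRNA of TAZ was lower as well, as given above, and its part in these changes was not tested.

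WWC1 showed the largest change of any member. It was at 234 and 231 CPM in siCtrl and at 415 and 429 CPM in siATF4 in DMSO, an increase of 81.6% in mean CPM (log2 fold change 0.86 ± 0.037, adjusted P = 5.18e-10). In this comparison 96.7% of genes tested had a lower log2 fold change. LATS2 rose to 71.6 and 75.9 CPM (0.34 ± 0.057, adjusted P = 1.31e-04), above both control libraries, and SAV1 rose to 8.98 and 9.47 CPM (0.50 ± 0.099, adjusted P = 5.88e-04). STK4 rose to 203 and 209 CPM (0.26 ± 0.048, adjusted P = 3.65e-04). AMOTL1, the angiomotin, fell to 26.5 and 27.2 CPM (−0.55 ± 0.054, adjusted P = 1.06e-06).

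The increases of LATS1 and MOB1B in DMSO were less secure. LATS1 was at 38.6 and 44.4 CPM in siATF4, above the control libraries (0.38 ± 0.12, adjusted P = 0.0104), but the call was lost without the second siCtrl or the second siATF4 library. MOB1B was at 22.9 and 23.1 CPM (0.29 ± 0.096, adjusted P = 0.0170), and the call was lost without any of the 4 libraries compared. NF2 was at 209 and 233 CPM (−0.10 ± 0.051, adjusted P = 0.0919), STK3 at 38.1 and 40.3 CPM and MOB1A at 51.6 and 53.0 CPM, and none of these 3 passed. NF2 did pass, as a decrease, in a fit of only the groups compared and without the second siATF4 library in DMSO (−0.179).

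With Sorafenib, siATF4 as compared to siCtrl raised 8 of the 10 members and lowered AMOTL1, against 73.2% of all genes that changed, 35.8% that rose and 37.4% that fell. The members' median was 0.42 and that of all genes was −0.0082. WWC1 and SAV1 passed the thresholds of the study, which 28.9% of all genes passed, and STK3 lay just below the fold threshold at 0.578. WWC1 was at 409 and 416 CPM against 224 and 227 CPM (0.87 ± 0.037, adjusted P = 3.27e-10), and NF2 was at 323 and 325 CPM against 229 and 242 CPM (0.46 ± 0.051, adjusted P = 2.53e-06). STK3 was at 50.6 and 45.8 CPM against 33.4 and 30.9 CPM (adjusted P = 4.6e-06), and LATS1 at 49.3 and 43.8 CPM against 30.4 and 32.3 CPM (0.56 ± 0.12, adjusted P = 6.68e-04).

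All 4 of these genes were higher in both siATF4 libraries than in either control library, as were 43.0% of all genes. SAV1 rose by 54.4% in mean CPM, MOB1B by 31.1%, LATS2 by 27.4% and STK4 by 20.8%. MOB1A was at 50.6 and 48.7 CPM against 46.4 and 41.8 CPM and did not pass (0.17, adjusted P = 0.0549), although it passed under 10 of the 22 alternative settings, with the replicate number as a block among them (adjusted P = 0.0480). AMOTL1 was at 36.1 and 33.6 CPM against 39.7 and 38.6 CPM (−0.17 ± 0.054, adjusted P = 0.0135), and this call was lost without the first siCtrl or the second siATF4 library in Sorafenib.

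**Figure D3:**
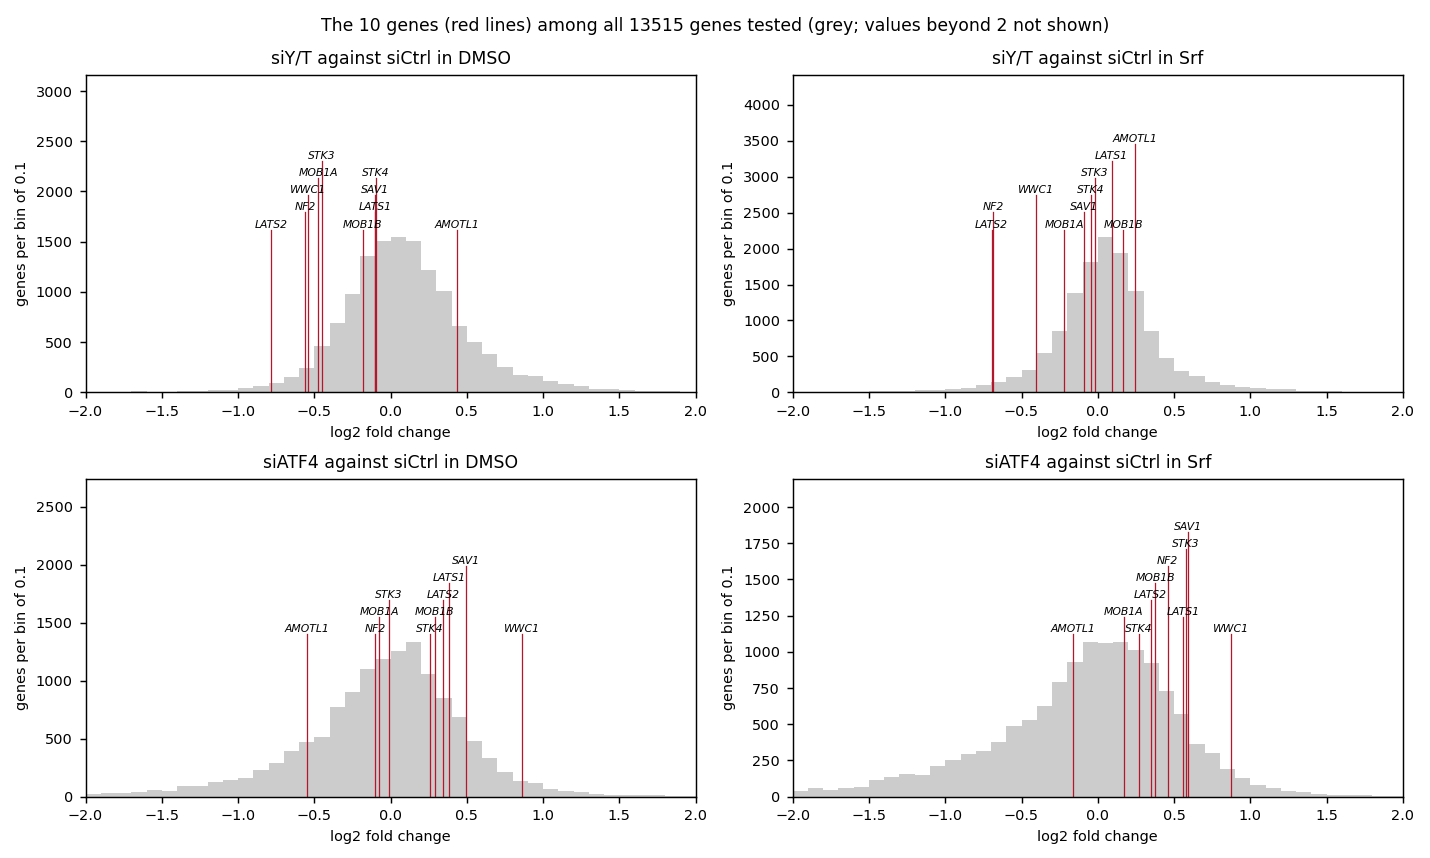
Number of genes (y axis) per bin of 0.1 in log2 fold change (x axis) for all genes tested, in grey, with the 10 members as red lines, in the 4 siRNA comparisons. Among the members, LATS2, NF2 and WWC1 lie furthest left with siY/T, and WWC1 lies furthest right with siATF4. With siY/T in DMSO, 4.25% of genes tested had a lower value than WWC1, 5.9% than MOB1A and 6.78% than STK3. With siY/T in Sorafenib, 7.35% had a lower value than WWC1.

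Sorafenib itself had little effect on these genes in control cells. As compared to DMSO in siCtrl, 2 of the 10 members fell and 8 did not pass, although 63.2% of all genes changed, 36.3% upward and 26.9% downward. Of the calls over all genes 57.5% were higher in Sorafenib with the deposited scaling and 48.3% with quantile normalization. None passed the thresholds of the study, which 17.5% of all genes passed. MOB1A went from 55.9 and 54.3 CPM to 46.4 and 41.8 CPM (−0.32 ± 0.075, adjusted P = 0.00232) and STK3 from 39.5 CPM in both libraries to 33.4 and 30.9 CPM (−0.30 ± 0.068, adjusted P = 0.00190). For the other 8 members the 95% intervals included 0, with bounds of −0.17 and 0.07 for LATS2, of −0.12 and 0.10 for NF2 and of −0.13 and 0.03 for WWC1 on the log2 scale. The interval of LATS1 was the widest, from −0.27 to 0.24. These bounds hold for the deposited scaling: with quantile normalization SAV1 went from −0.132 to −0.398 and passed, and NF2 (0.105) and WWC1 (0.067) lay above their bounds without passing.

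With YAP and TAZ depleted, Sorafenib as compared to DMSO raised MOB1B (0.30 ± 0.096, adjusted P = 0.0195) and WWC1 (0.09 ± 0.037, adjusted P = 0.0498) and lowered AMOTL1 (−0.21 ± 0.054, adjusted P = 0.00552) and NF2 (−0.14 ± 0.051, adjusted P = 0.0373), where 52.9% of all genes changed, 29.5% upward and 23.5% downward. None of the 10 passed the thresholds of the study, which 9.97% of all genes passed. Most of these were marginal: the call of WWC1 was lost under 17 of the 22 alternative settings, that of NF2 under 7 and that of MOB1B under 4. The call of WWC1 was lost without any library other than the second siY/T library in DMSO. The call of NF2 was lost without either siCtrl library in DMSO, the first siY/T library in DMSO or either siY/T library in Sorafenib, and that of MOB1B without the first siY/T library of either treatment. Among members that did not pass, STK3 and LATS1 passed without the second siY/T library in DMSO and MOB1A passed without the first siY/T library in Sorafenib, while SAV1 passed with quantile normalization (−0.241). The call of AMOTL1 held under all 22. With ATF4 depleted, Sorafenib raised NF2 from 209 and 233 CPM to 323 and 325 CPM (0.55 ± 0.051, adjusted P = 2.42e-06), AMOTL1 from 26.5 and 27.2 CPM to 36.1 and 33.6 CPM (0.37 ± 0.054, adjusted P = 9.96e-05) and STK3 from 38.1 and 40.3 CPM to 50.6 and 45.8 CPM (0.29 ± 0.068, adjusted P = 0.00296), where 50.4% of all genes changed, 27.9% upward and 22.4% downward, and 8.63% passed the thresholds of the study. The other 7 members did not pass in siATF4, and no member passed the thresholds of the study. LATS1 did pass in siATF4 under 3 of the 22 alternative settings, a fit of only the groups compared among them.

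The difference of the siRNA effects between Sorafenib and DMSO was then tested directly. For siY/T, 22.0% of all genes tested passed (7.81% upward, 14.2% downward; 5.29% by the thresholds of the study, none of them members) and STK3 was the only member to do so: its log2 fold change was −0.45 in DMSO and −0.02 in Sorafenib, a difference of 0.43 ± 0.096 (adjusted P = 0.00769). For LATS2 the difference was 0.09 with a 95% interval of −0.09 to 0.26, and for NF2 it was −0.12 (−0.28 to 0.03). With quantile normalization NF2 (−0.231) and MOB1B passed as well as STK3. Without the second siY/T library in DMSO 5 members passed (LATS1, MOB1A, MOB1B and WWC1 in addition), and 2 passed without the first (AMOTL1 in addition) or without the second siY/T library in Sorafenib (MOB1A in addition). For siATF4, 41.1% of all genes passed, 19.3% upward and 21.8% downward, and 3 members did. By the thresholds of the study 12.5% of all genes and 1 member, STK3, passed. The difference was 0.59 ± 0.096 for STK3 (adjusted P = 3.75e-04), 0.56 ± 0.071 for NF2 (adjusted P = 6.63e-05) and 0.38 ± 0.076 for AMOTL1 (adjusted P = 0.00151). MOB1A (0.246) did not pass, but it did under 5 of the 22 alternative settings, a fit of only the groups compared among them. For LATS2 (0.00, 95% interval −0.17 to 0.18) and WWC1 (0.01, −0.10 to 0.13) no difference was detected, and their increases with siATF4 had similar sizes with and without the drug. WWTR1 moved with these differences too, with a siATF4 effect 0.61 higher in Sorafenib than in DMSO, and its part was not tested.

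The balance between paralogs is described as a ratio within each library, where no scaling between libraries enters, and was not tested. The log2 ratio of LATS2 to LATS1 was 0.87 ± 0.0024 (SD, n = 2) in siCtrl in DMSO, equal to 1.83 times as many reads on LATS2, and 0.84 ± 0.092 with Sorafenib. Upon siY/T it was 0.18 ± 0.20 in DMSO and 0.04 ± 0.071 in Sorafenib. The siY/T libraries were at 0.33 and 0.04 in DMSO and at −0.01 and 0.09 in Sorafenib, below every library of the other 4 groups. With siATF4 the log2 ratio of LATS2 to LATS1 was 0.83 ± 0.084 in DMSO and 0.62 ± 0.12 in Sorafenib. The log2 ratio of MOB1B to MOB1A was lowest in siCtrl in DMSO (−1.56 ± 0.014) and highest in siY/T with Sorafenib (−0.89 ± 0.10). STK4 drew 4.11 times the reads of STK3 in siATF4 with Sorafenib and 5.59 times in siY/T in DMSO, the ends of its range over groups. These ratios are not corrected for transcript length.

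**Figure D4:**
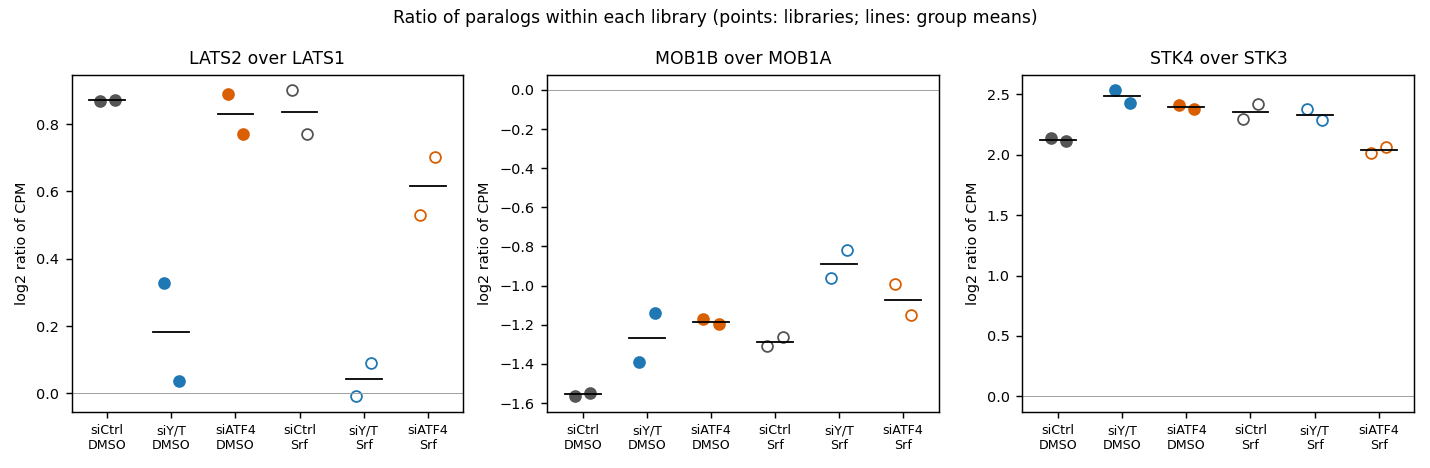
Log2 ratio of CPM (y axis) within each library for LATS2 over LATS1, MOB1B over MOB1A and STK4 over STK3 in the 6 groups (x axis); points are libraries, filled for DMSO and open for Sorafenib (Srf), and lines are means of 2. The ratio of LATS2 to LATS1 is 0.33 or less in the siY/T libraries and between about 0.5 and 0.9 in the others.

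The genes whose pattern over the 12 libraries was most like that of LATS2, by Pearson correlation of log2(CPM + 0.5) among the 11152 genes that averaged 5 CPM or more, were TMEM40 (r = 0.987), MRPS6 (0.983), FAM169A (0.983), HSPA9 (0.981) and MME (0.981). The 12 points fall into 6 groups, so that these values mainly reflect the differences between groups, and no P is given.

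For context, 71 other genes of the pathway, also listed with earlier results of these data known, were considered, of which 62 were tested. With siY/T in DMSO 24 of them rose, 21 fell and 17 did not pass, with a median of 0.03, so that 72.6% changed as compared to 60.1% of all genes. With siATF4 in Sorafenib 23 rose, 23 fell and 16 did not pass, with a median of −0.02, so that 74.2% changed as compared to 73.2% of all genes. Close relatives of the members stood at both ends with siY/T in DMSO. WWC2 in that comparison was added to them after its values were seen. AMOT, the founding angiomotin, rose from 10.9 to 24.3 CPM (log2 fold change 1.12) like its paralog AMOTL1, whereas AMOTL2 fell from 140.2 to 72.4 CPM (−0.95). FRMD6, a FERM domain relative of NF2, fell from 226 to 106 CPM (−1.09), and WWC2, a paralog of WWC1, fell from 158 to 106 CPM (−0.58) as WWC1 did, whereas the other paralog WWC3 was low and rose from 1.52 to 2.72 CPM (0.67). The LIM proteins AJUBA and WTIP, which inhibit LATS, fell by 1.04 and 1.06 on the log2 scale. With siATF4 in Sorafenib, WWC3 (0.79) and WWC2 (0.54) rose as WWC1 did, FRMD6 rose by 0.32 and AMOT fell by 1.58 on the log2 scale. WTIP and LIMD1, another LIM protein, rose by 0.98 each. Among other kinases that can phosphorylate LATS, TNIK rose by 1.24 with siY/T in DMSO and fell by 1.14 with siATF4 in Sorafenib, and among the 14-3-3 proteins that hold phosphorylated YAP, YWHAH fell by 1.49 with siATF4 in Sorafenib. Each of these changes had an adjusted P under 0.05 by limma.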

How the data were processed

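The deposited table held CPM values of 12 poly(A) libraries (TruSeq stranded, 2 per group). Per the study's methods and the labels, the authors used STAR with hg19 and unique hits only, counted reads over RefSeq mRNA exons with QuasR and divided by library totals. Paralogs such as MOB1A and MOB1B therefore lose reads from identical stretches, and since the strand setting of the counting is not given in the sources used here, overlapping genes on opposite strands may share reads. The study's methods and legends differ from the labels in the number of replicates, the instrument and the Sorafenib dose, and the labels were followed.

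Gene identifiers were matched to symbols with the RefSeq table of GRCh38.p14 (26111 of 26258 matched), and lengths came from GENCODE on GRCh37. Genes that reached 1 CPM in 2 or more libraries were tested with limma 3.58.1 (trend, two-sided) on log2(CPM + 0.5), with 1 coefficient per group over all 12 libraries, and a change meant a Benjamini-Hochberg adjusted P under 0.05 over all 13515 genes. Fold changes on this scale understate changes of low genes. The study's thresholds were a second rule for calls. Of all values at least 99.9962% came out as whole reads, within 0.01 read, when divided by the value of 1 read. The reads so recovered were tested with edgeR 4.0.16 and DESeq2 1.42.0 as alternatives (R 4.3.3), and edgeR called 4260 genes higher and 3847 lower with siY/T in DMSO against 5043 and 3079 in limma. Other alternatives were the pseudocount, the filter, TMM and quantile scaling, a replicate block, fitting the compared groups alone, and leaving out each library.

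All 10 members are named, the other pathway genes by the largest absolute log2 fold change per list (up to 4, a selection of which is given), and 5 genes most like LATS2. The members and lists were chosen with earlier results of these data known. Protein sequences and siRNA sequences were not used here.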

Additional observations from a re-analysis of the deposited data

Results flagged for a closer look

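In 4 cases the effect of an siRNA on a member differed between Sorafenib and DMSO by a test of the difference itself (limma, Benjamini-Hochberg adjusted P under 0.05). The siY/T effect on STK3 was 0.43 higher in Sorafenib than in DMSO on the log2 scale. The siATF4 effect was higher in Sorafenib by 0.59 for STK3, by 0.56 for NF2 and by 0.38 for AMOTL1. The 3 siATF4 differences kept their calls under all 22 alternative settings, and so did that of STK3 for siY/T. The control libraries are shared between the 2 STK3 values, so that they are not independent.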

How the results depend on the processing

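Of the 90 results of members (10 genes in 9 comparisons), 40 passed, and 33 of these kept their call and direction under all 22 alternative settings, 7 lost the call under some and 0 turned sign. Of the 50 that did not pass, 19 passed under some setting and 22 changed sign. With the study's thresholds the number of members changed was 1 and 2 for siY/T in DMSO and Sorafenib, 1 and 2 for siATF4, 0 for Sorafenib in each of siCtrl, siY/T and siATF4, 0 for the difference of the siY/T effects and 1 for that of the siATF4 effects, by construction of the larger fold required. For Sorafenib in siY/T the count of 4 became 2 with no filter and 1 with only the groups compared, and 1 to 6 upon leaving out 1 library. For the difference of the siY/T effects it became 3 with quantile normalization and 1 to 5 upon leaving out 1 library. The cause was not tested. Quantile normalization turned the sign of NF2 (0.105) and WWC1 (0.067) for Sorafenib in siCtrl, MOB1B (−0.011) for Sorafenib in siATF4, and STK4 (−0.045), LATS2 (−0.028) and WWC1 (−0.088) for the difference of the siATF4 effects, none of which had passed, and brought SAV1 past the threshold for Sorafenib in siCtrl (−0.398), Sorafenib in siY/T (−0.241) and siY/T in DMSO (−0.309). Leaving out 1 library at a time, the log2 fold changes that turned sign ranged, for siY/T against siCtrl in DMSO, from −0.330 to 0.126 for LATS1 and −0.228 to 0.027 for SAV1. For siY/T against siCtrl in Sorafenib they ranged from −0.077 to 0.035 for STK3 and −0.100 to 0.012 for STK4. For siATF4 against siCtrl in DMSO they ranged from −0.053 to 0.027 for STK3. For Sorafenib against DMSO in siCtrl they ranged from −0.059 to 0.029 for LATS1, −0.052 to 0.029 for NF2 and −0.034 to 0.005 for AMOTL1. For Sorafenib against DMSO in siY/T they ranged from −0.073 to 0.039 for STK4, −0.051 to 0.405 for LATS1, −0.048 to 0.124 for LATS2, −0.248 to 0.007 for SAV1 and −0.195 to 0.060 for MOB1A. For Sorafenib against DMSO in siATF4 they ranged from −0.067 to 0.142 for MOB1B. For the difference of the siY/T effects they ranged from −0.002 to 0.110 for STK4, −0.036 to 0.420 for LATS1 and −0.116 to 0.138 for SAV1. For the difference of the siATF4 effects they ranged from −0.033 to 0.062 for STK4, −0.039 to 0.043 for LATS2, −0.015 to 0.194 for MOB1B and −0.013 to 0.035 for WWC1. The labels tie same-numbered samples to no shared culture or day, and with 2 numbers the data do not settle a pairing: the correlation of same-numbered deviations was 0.0358 to 0.193 among the 3 pairs of DMSO groups, 0.100 to 0.164 among the 3 pairs of Sorafenib groups and −0.282 to 0.00541 among the 9 pairs across treatments. The replicate block was 1 shift of the second replicate common to all groups. It therefore cannot follow deviations that differ between DMSO and Sorafenib, and does not test a pairing within a treatment. With the replicate block 6 and 5 members changed with siY/T in DMSO and Sorafenib, as 59.5% and 48.1% of all genes did, and 7 and 10 with siATF4, as 67.4% and 72.9% of all genes did. The block brought in MOB1A with siATF4 in Sorafenib (adjusted P = 0.0480, limma) and lost WWC1 with Sorafenib in siY/T. For Sorafenib in siCtrl, siY/T and siATF4 it gave 2, 3 and 3 members (62.7%, 52.1% and 49.5% of all genes), and for the differences 1 and 3 (20.8% and 40.4%). With 2 libraries per group, precision rests on a spread shared over groups.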
